A study of Mus musculus with 38 samples.

Results

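RNA outside polysomes was compared between interphase zygotes and zygotes in the first mitosis of the mouse embryo. The comparison rests on 6 of the 36 libraries analysed: zygote replicates B, C and D and zygote M replicates A, B and C, all from the non-polysome fraction. They were chosen by stage and fraction from the sample titles, and by no measured value. The whole series holds 38 labelled libraries of oocytes and embryos, from germinal vesicle oocytes to two-cell embryos, each made from either the non-polysome or the polysome fraction. Both zygote groups came from ICR females that were hormonally stimulated and mated within the strain. No transgene or deletion is given for either group. Interphase zygotes had pronuclei and were lysed after collection, and the treatment label of their libraries is WT. Zygote M embryos had been cultured and held in M-phase with nocodazole, which stops microtubules from forming. Mitosis, time since fertilization, culture and drug therefore cannot be told apart in this comparison. The treatment label of zygote M names M-phase of meiosis, whereas the titles and the study's methods place it in the mitosis that follows the pronuclear stage. Lysates of both groups held cycloheximide, which stops ribosomes on their mRNA. They were spun through a sucrose gradient collected as 10 fractions, of which the lighter 5 were pooled as the non-polysome fraction and the heavier 5 as the polysome fraction.

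The zygote lives on mRNA made by the oocyte. Much of that mRNA is stored outside polysomes in particles with repressor proteins, and it is recruited to ribosomes by lengthening of its poly(A) tail. One sequence that directs this lengthening is the cytoplasmic polyadenylation element (CPE), a short U-rich element near the 3′ end that is bound by the protein CPEB. Genome activation is minor at this stage, so the mRNA pool of the zygote changes mainly through storage, translation and decay.

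Values are FPKM, fragments per kilobase of transcript scaled to the library's total, which state a gene's share of a library. A lower FPKM therefore does not separate fewer molecules in the fraction from more of other RNA, and fewer embryos cannot be told apart from less RNA per embryo. A value of 0.01 FPKM is the floor of the table, and values up to 1.1 times it are counted as at the floor. A gene is called below where its change passed an adjusted p of 0.05 in limma (Benjamini-Hochberg) and a fold of 2.

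The 2 groups differed in how many genes were seen. In the zygote libraries 10381, 10525 and 10430 genes exceeded 0.1 FPKM, against 7455, 7717 and 8072 in zygote M. The groups did not overlap (exact permutation test, two-sided, p = 0.1, the smallest that 3 against 3 libraries allow). Among the 7967 genes tested, 112 to 190 lay at the floor in a zygote library and 750 to 1011 in a zygote M library. Replicates correlated across these genes with r of 0.856 to 0.890 in zygote and 0.646 to 0.705 in zygote M, where the range between the groups was 0.626 to 0.702. Median FPKM of the genes tested was 1.60 to 1.62 in zygote and 0.962 to 1.04 in zygote M. The steps between low values implied totals of 22.2 to 25.9 M fragments a library in zygote and of 16.8 to 23.7 M in zygote M. Oocyte genes were present in all 6 libraries, with Gdf9 at 95.7 FPKM or above and Bmp15 at 119 FPKM or above. None of the 14 cumulus and granulosa cell markers and none of the 5 oviduct markers in the table was high enough to be tested, and the highest of them reached 0.715 FPKM, in a zygote library. The blood cell markers Lyz2 and Cd68 varied between libraries of both groups, with Lyz2 reaching 2.32 FPKM in zygote and 14.4 FPKM in zygote M and Cd68 reaching 5.60 and 16.5 FPKM, and their part in the results was not tested. The globin genes reached at most 0.426 FPKM.

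In zygote M, 84 genes were higher and 746 were lower, which is 1.05% and 9.36% of the genes tested. The median change over all tested genes was -0.87 on the log2 scale, and changes below are best read against that shift. Quantile normalization, which gives all libraries one distribution, moved the median to 0.20 and the calls to 601 higher (7.54%) and 505 lower (6.34%). With it, 82 of the 84 higher genes and 450 of the 746 lower genes were called again. The groups also differ in spread, with a median residual SD of 0.445 in zygote and 1.06 in zygote M, so the 6 libraries were fitted on their own too. That fit called 121 genes higher (1.45%) and 539 lower (6.44%), and it held 57 of the 84 and 306 of the 746. Of these 830 genes, 719 were tested in that fit. The adjusted p of that fit is given as the 6-library adjusted p where it changes a call.

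The 10 coding genes with the largest rise, among those at 10 FPKM or more in zygote M, included 3 Tcl1 genes and Omt2b. The Tcl1 genes lie together on chromosome 12, and Tcl1 encodes a co-activator of the kinase Akt. Tcl1b1 (12:105159690-105166626, GRCm38) stood at 204, 177 and 134 FPKM in zygote B, C and D and at 1762, 2027 and 1528 FPKM in zygote M A, B and C. No zygote M library came near the zygote range, and the log2 fold change was 3.38 ± 0.41 (SE, n = 3 and 3, adjusted p = 1.96e-06). Tcl1 stood at 1019, 689 and 668 FPKM in zygote and at 3468, 3772 and 3738 FPKM in zygote M, a log2 fold change of 2.24 ± 0.57 (adjusted p = 0.00993). Tcl1b4 rose by 2.87 ± 0.77 (adjusted p = 0.0156) and Tcl1b2 by 2.63 ± 0.78 (adjusted p = 0.0276). The call on Tcl1b2 held in 2 of the 6 fits that leave out 1 library each, and that on Tcl1b4 in 4. Tcl1b2 and Tcl1b4 were also called in the 6-library fit (adjusted p = 0.00459 and 0.00349). Tcl1b3 and Tcl1b5 had log2 fold changes of 2.75 and 2.77 without overlap of the groups, but missed the threshold (adjusted p = 0.204 and 0.0961). Their standard errors of 1.31 and 1.05 pool the spread of all groups, not only that of the 6 libraries compared. The family as a whole took 1.28%, 0.993% and 0.855% of all FPKM in the zygote libraries and 5.84%, 6.02% and 6.09% in zygote M (exact permutation test, two-sided, p = 0.1, adjusted over 7 shares 0.233). Members of the family resemble each other, so reads may have been divided between them, and the family was singled out after its values were seen.

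Omt2a and Omt2b, oocyte maturation genes that sit beside each other on chromosome 9, showed the same order of change. Omt2b stood at 526, 462 and 301 FPKM in zygote and at 2915, 3303 and 2201 FPKM in zygote M, a log2 fold change of 2.73 ± 0.39 (adjusted p = 2.03e-05). Omt2a stood at 213, 198 and 122 FPKM in zygote and at 913, 948 and 787 FPKM in zygote M, a log2 fold change of 2.35 ± 0.39 (adjusted p = 0.000173). The groups did not overlap in either gene, as in 8.41% of all genes on the higher and 28.1% on the lower side. The pair may share reads, which was not tested.

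**Figure D1:**
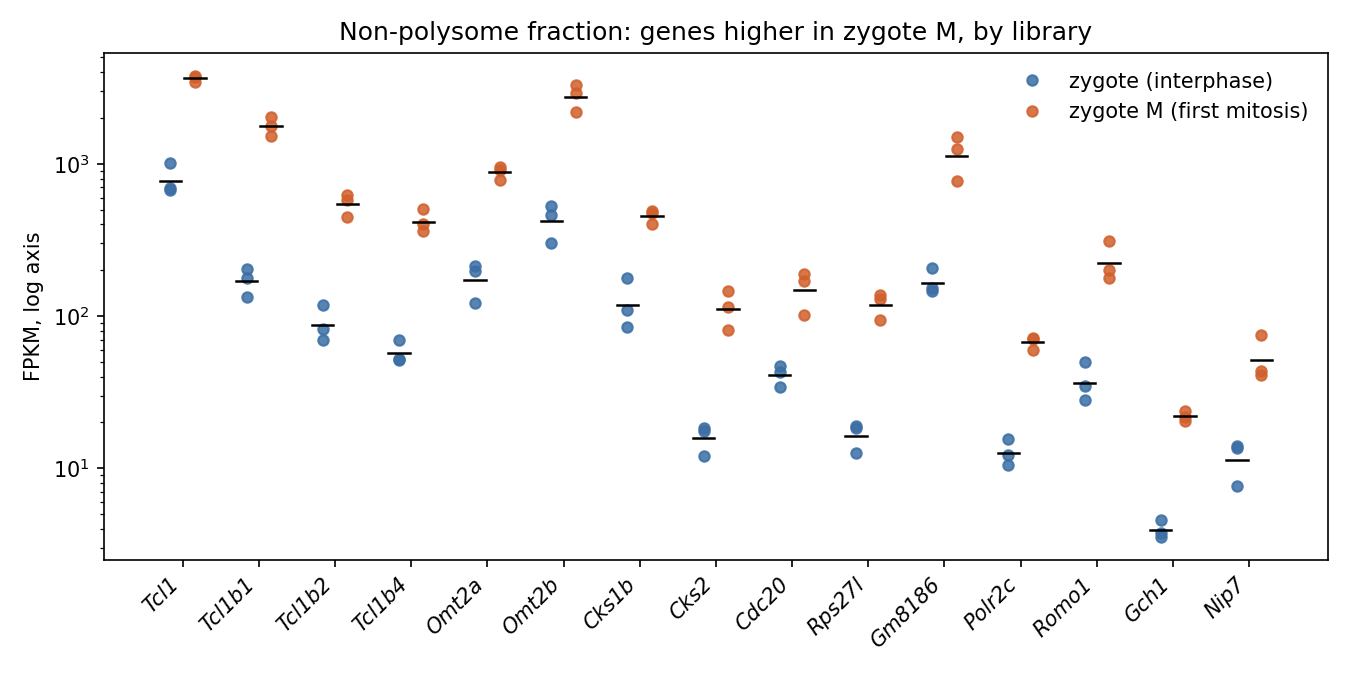
FPKM on a log axis of 15 genes that were called higher, with 1 point for each of the 3 zygote and 3 zygote M non-polysome libraries and a bar at their geometric mean. The groups do not overlap in any of the 15 genes, from Gch1 at 3.56 to 4.60 FPKM in zygote up to Tcl1 at 3468 FPKM and more in zygote M. Lack of overlap was a condition for choosing part of them and held on the higher side in 8.41% of all genes tested.

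Several higher genes act in the cell cycle. Cks1b and Cks2 encode the small subunits that bind the kinase Cdk1. Cks2 stood at 18.53, 17.62 and 11.96 FPKM in zygote and at 147, 114 and 81.1 FPKM in zygote M, and its log2 fold change was 2.81 ± 0.45 (adjusted p = 9.08e-05). Cks1b stood at 177, 109 and 84.6 FPKM in zygote and at 473, 491 and 402 FPKM in zygote M, with 1.95 ± 0.36 (adjusted p = 0.000669). Both genes rose in every library of zygote M above every library of zygote. Cdc20, which activates the anaphase-promoting complex, stood at 34.01, 47.16 and 42.95 FPKM in zygote and at 189, 102 and 171 FPKM in zygote M, a log2 fold change of 1.86 ± 0.36 (adjusted p = 0.000937). Pttg1, the securin that Cdc20 directs to destruction, stood at 1532, 674 and 805 FPKM in zygote and at 2436, 1836 and 1948 FPKM in zygote M. Its log2 fold change of 1.13 ± 0.37 (adjusted p = 0.0474) was called in 1 of the 6 fits that leave out a library and had a 6-library adjusted p of 0.0917. The centromeric histone Cenpa stood at 13.0, 10.4 and 8.37 FPKM in zygote and at 24.6, 24.4 and 22.6 FPKM in zygote M, and its log2 fold change of 1.19 was not called (adjusted p = 0.182, 6-library adjusted p = 0.0409).

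Of 25 tested M-phase cyclins, kinases and regulators, 2 were higher (8%, against 1.05% of all genes) and 1 was lower (4%, against 9.36%). Their median log2 fold change was -0.35 against -0.87 over all genes, and 0.27 against 0.20 under quantile normalization. The lower one was Aurkc, the germ-cell Aurora kinase, at 16.6, 8.56 and 11.6 FPKM in zygote and 1.33, 2.63 and 2.33 FPKM in zygote M (log2 fold change -2.55 ± 0.54, adjusted p = 0.00247). Ccnb1, the mitotic cyclin, overlapped between the groups at 61.2 to 97.0 FPKM in zygote and 70.4 to 160 FPKM in zygote M (adjusted p = 0.596), and Cdk1 at 6.98 to 7.94 against 4.38 to 7.29 FPKM (adjusted p = 0.813); both were looked up after the results were seen. Of 25 members of the anaphase-promoting complex and the spindle checkpoint, 2 were higher (8%, against 1.05% of all genes) and 4 were lower (16%, against 9.36%). Bub1b, a checkpoint kinase, fell by 4.75 on the log2 scale from 0.900 to 1.21 FPKM in zygote (adjusted p = 0.0133). Anapc4, a scaffold subunit, fell by 3.82 and Ube2c, the ubiquitin-conjugating enzyme of the complex, by 1.79, with adjusted p of 0.0285 and 0.041 and 6-library adjusted p of 0.167 and 0.113. Of 21 centromere and kinetochore genes, 1 was called (4.76%, against 9.36% of all genes). It was Cenpl, lower by a log2 fold change of -6.01 (adjusted p = 0.0255), which was called in 0 of the 6 fits that leave out a library and was not tested in the 6-library fit.

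Further genes among the 10 coding genes with the largest rise have varied roles. Rps27l, a ribosomal protein paralogue, stood at 19.0, 18.3 and 12.6 FPKM in zygote and at 129, 138 and 93.5 FPKM in zygote M (log2 fold change 2.86 ± 0.39, adjusted p = 1.4e-05). Polr2c, a subunit of RNA polymerase II, stood at 15.5, 12.2 and 10.5 FPKM in zygote and at 70.9, 72.1 and 60.0 FPKM in zygote M (2.43 ± 0.41, adjusted p = 0.000173). Romo1, a mitochondrial membrane protein, rose by 2.61 ± 0.48 (adjusted p = 0.000508), and Gch1, the first enzyme of tetrahydrobiopterin synthesis, by 2.47 ± 0.46 (adjusted p = 0.000652). Gm8186 rose by 2.77 ± 0.38 (adjusted p = 1.4e-05). Of 11 subunits of RNA polymerase II, 3 were higher and 3 were lower (27.3% each, against 1.05% and 9.36% of all genes), among them Polr2h (1.80, adjusted p = 0.0367, 6-library adjusted p = 0.0732) and Polr2d (-1.92, adjusted p = 0.0286). In the 6-library fit 1 of the list was higher and 2 were lower. Snrpg, a spliceosomal Sm protein, rose by 2.82 ± 0.53 (adjusted p = 0.000731), whereas Snrpc, Snrpd2 and Lsm5 of the same list of 19 genes were lower. Snrpc and Snrpd2 had 6-library adjusted p of 0.109 and 0.146, and Lsm5 was not tested in that fit and was called in 0 of the 6 fits that leave out a library. Nip7, a ribosome biogenesis factor, stood at 14.03, 13.56 and 7.618 FPKM in zygote and at 74.9, 41.0 and 43.6 FPKM in zygote M (2.18 ± 0.44, adjusted p = 0.00154). The histone variant H2afz was higher mainly in 1 library, with 30.5, 10.7 and 12.9 FPKM in zygote and 48.2, 172 and 34.4 FPKM in zygote M (2.02 ± 0.54, adjusted p = 0.014, 6-library adjusted p = 0.141). Elob, at 0.422 to 0.823 FPKM in zygote and 0.0874 to 0.717 FPKM in zygote M, was not called (adjusted p = 0.27). Its oocyte paralogue Elobl (11:88964658-88966932) stood at 2472, 2677 and 3362 FPKM in zygote and at 250.3, 249.4 and 268.4 FPKM in zygote M. The groups lay far apart, with a log2 fold change of -3.46 ± 0.32 (adjusted p = 2.21e-08), and Elobl was called lower in polysomes as well (-1.98, adjusted p = 9.95e-05).

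Higher RNAs of other kinds included nuclear copies of mitochondrial genes on chromosome 1. Of 7 such pseudogenes, 6 were called higher, against 1.95% of all pseudogenes tested, and the 7 were looked up after the results were seen. Gm28437 (1:24613189-24613972) stood at 339, 419 and 290 FPKM in zygote and at 1952, 929 and 788 FPKM in zygote M (1.71 ± 0.37, adjusted p = 0.00312). Of these, 4 were called in 1 of 6 fits that leave out a library. The copies match mitochondrial transcripts closely, and no mitochondrially encoded gene was analysed here. By the rule for genes that do not code for protein, Scarna13 and the pseudogene Gm15452 had the largest rises. Scarna13, a guide RNA of Cajal bodies, stood at 2.93, 0.338 and 0.01 FPKM in zygote and at 18.1, 14.7 and 9.54 FPKM in zygote M (5.99 ± 1.97, adjusted p = 0.0492, 6-library adjusted p = 0.126). Gm15452 rose by 2.61 ± 0.50 (adjusted p = 0.000802).

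The CPE was looked for in the last 100 bases of the 3′ UTR, as the letters TTTTAT or TTTTAAT on the sense strand of GENCODE vM21 transcripts, GRCm38. It was present in 1182 of 6313 tested coding genes (18.7%) and in 16.6% of all coding transcripts used. Of the 53 higher coding genes with a transcript, 19 held it (35.8%), and of the 578 lower ones 93 did (16.1%). Among the higher genes that the 6-library fit called as well, the share was 17 of 39 (43.6%). Under quantile normalization, 28.2% of the 468 higher and 15.4% of the 382 lower coding genes held it. These shares are a description, with no test of a difference. Below are the stretches around the last CPE of 8 higher genes, shown because each holds a CPE and 6 of them are described above, with the CPE and any AATAAA polyadenylation signal in capitals.
Cdc20 (chr4:118432911-118432940, minus strand): TTTTATTTTATtttttctAATAAAgttcgt
Cks1b (chr3:89415472-89415490, minus strand): aagttTTTTATaatcttaa
Cks2 (chr13:51650605-51650634, plus strand): gcctgTTTTATtttacctgttttgttaaat
Omt2a (chr9:78312009-78312038, minus strand): aacggTTTTATAATAAATAAAagtttcagg
Omt2b (chr9:78329562-78329591, plus strand): aacggTTTTATAATAAATAAAagtttcagg
Rps27l (chr9:66949496-66949514, plus strand): taaagTTTTAATtatggac
Siah2 (chr3:58674952-58674981, minus strand): taattTTTTAATAAAattttttcAATAAAt
Siva1 (chr12:112649098-112649127, plus strand): ttatgTTTTATacccagtaacaagtgaata
The stretches of Omt2a and Omt2b are identical. In Siah2 and in both Omt2 genes the CPE and a polyadenylation signal overlap or touch. Siah2, a ubiquitin ligase, stood at 60.6, 44.9 and 50.2 FPKM in zygote and at 170, 210 and 210 FPKM in zygote M. Its log2 fold change was 1.93 ± 0.36 (adjusted p = 0.000726). Siva1, an apoptosis regulator, stood at 87.3, 50.8 and 55.5 FPKM in zygote and at 183, 236 and 159 FPKM in zygote M (1.60 ± 0.37, adjusted p = 0.00496). Siah2 and Siva1 were added for their CPE after their values were seen.

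The lower genes fell further than the higher genes rose, with medians of -4.84 and 2.05 on the log2 scale, and many fell to the floor. The median of the lower genes therefore depends on the floor of 0.01 FPKM. Among maternal-effect genes, which the oocyte supplies for cleavage, Ooep of the subcortical maternal complex was the most abundant of those that fell. It stood at 1404, 1575 and 1582 FPKM in zygote and at 121, 121 and 104 FPKM in zygote M, a log2 fold change of -3.72 ± 0.42 (adjusted p = 7.36e-07). Zar1, an RNA-binding protein of maternal mRNA storage, stood at 361, 236 and 360 FPKM in zygote and at 66.7, 49.3 and 78.9 FPKM in zygote M (-2.30 ± 0.63, adjusted p = 0.0183). Npm2, a nuclear chaperone of the egg, stood at 18.4, 19.2 and 19.7 FPKM in zygote and at 0.999, 3.03 and 3.05 FPKM in zygote M (-3.19 ± 0.55, adjusted p = 0.000272). Dnmt1, the maintenance DNA methyltransferase, fell by 4.10 (adjusted p = 0.0172). Of 18 tested maternal-effect genes, 4 were lower (22.2%, against 9.36% of all genes) and 1, Zbed3, was higher, with a median of -1.91 against -0.87 over all genes, and in the 6-library fit 8 were lower. Padi6, at 108 to 114 FPKM in zygote and 19.3 to 21.9 FPKM in zygote M, was not called in the first fit (adjusted p = 0.0645) and was called in the second (6-library adjusted p = 0.0034). Of 22 oocyte markers, Figla, Zp3 and Zp1 were lower (13.6%, against 9.36% of all genes) and Omt2a and Omt2b were higher (9.09%, against 1.05%). Zp3, a zona pellucida glycoprotein, stood at 70.9, 61.5 and 102 FPKM in zygote and at 5.70, 14.3 and 6.32 FPKM in zygote M (-3.25 ± 0.88, adjusted p = 0.0166). In the 6-library fit 6 of the 22 oocyte markers were lower, without Zp1 and Figla (adjusted p = 0.0993 and 0.0805).

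Lists of storage and clearance factors lay near the median of all genes. Of 21 genes of maternal mRNA storage and repression, 3 were lower (14.3%, against 9.36% of all genes): Zar1, Stau1 and Patl2, of which Patl2 was not tested in the 6-library fit. Of 36 clearance factors, 3 were lower (8.33%). Pabpn1l, a poly(A)-binding protein that acts in clearance of maternal mRNA, stood at 355, 408 and 444 FPKM in zygote and at 50.8, 88.8 and 43.8 FPKM in zygote M (-2.78 ± 0.89, adjusted p = 0.0438). That call was lost in each of the 6 fits that leave out a library. Tob1 and Exosc5 were the other members called, with 6-library adjusted p of 0.0897 and 0.0874.

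**Figure D2:**
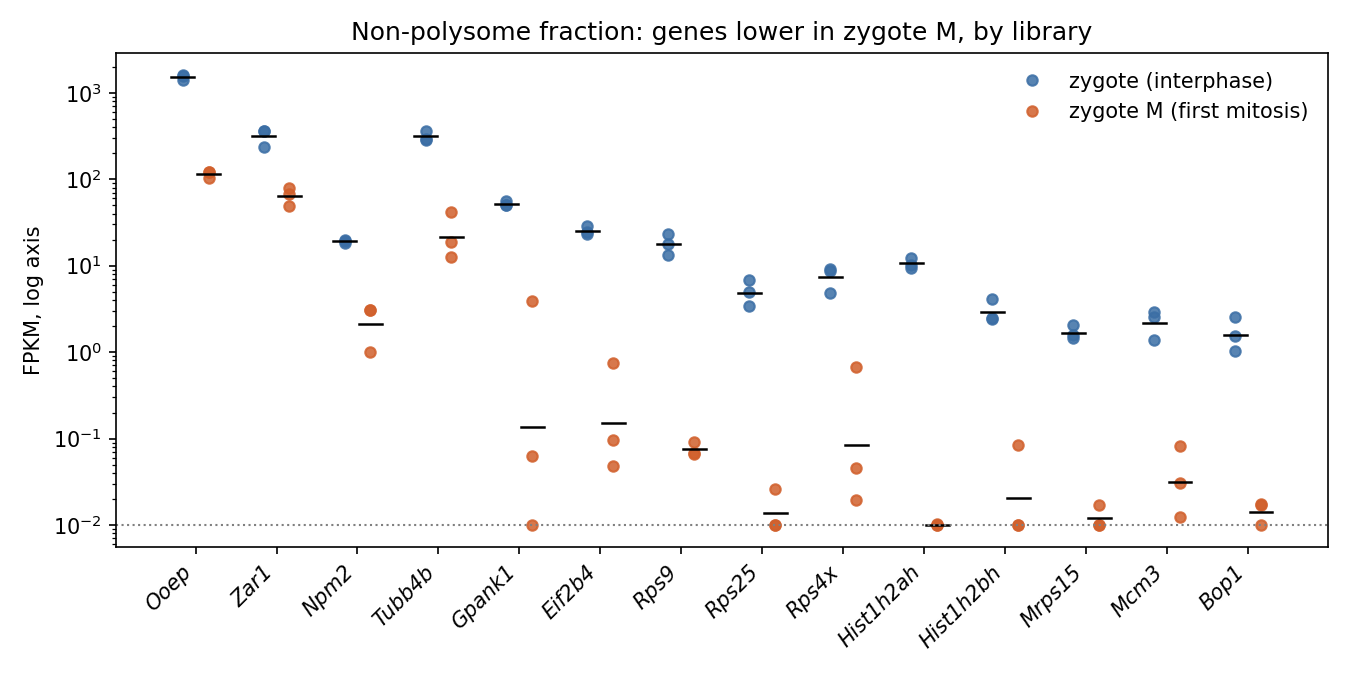
FPKM on a log axis of 14 genes that were called lower, with 1 point for each non-polysome library, a bar at the geometric mean of each group and a dotted line at the floor of 0.01 FPKM. The groups do not overlap in any of the 14 genes, and Hist1h2ah lies at the floor in zygote M while Ooep stays above 100 FPKM. Lack of overlap was a condition for choosing part of them and held on the lower side in 28.1% of all genes tested.

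Of 83 tested cytosolic ribosomal protein genes, 37 were lower (44.6%, against 9.36% of all genes) and 2 were higher, Rps27l and Rplp2. Their median log2 fold change was -2.20, against -0.87 over all genes. Quantile normalization gave 27 lower and 6 higher with a median of -1.16, and the 6-library fit gave 18 lower and 1 higher. Rplp2 was not called in that fit (adjusted p = 0.0908). Rps9, a protein of the small subunit, stood at 13.2, 17.7 and 23.5 FPKM in zygote and at 0.0666, 0.0920 and 0.0682 FPKM in zygote M (-7.88 ± 0.53, adjusted p = 6.35e-11). Rps25 stood at 5.00, 6.75 and 3.45 FPKM in zygote and at the floor in zygote M A and B and 0.0258 FPKM in C (adjusted p = 2.49e-10). Rps4x fell by 6.43 (adjusted p = 9.41e-05) and Rpl7a by 6.29 (adjusted p = 0.00137). The genes of this list together took 0.444% ± 0.027 (SD, n = 3) of all FPKM in zygote and 0.314% ± 0.158 (SD, n = 3) in zygote M, which overlapped (exact permutation test, two-sided, p = 0.4). Processed pseudogenes may share reads with these genes, which was not tested. Of 68 ribosomal protein pseudogenes named by symbol, 26 were lower in limma, against 12.1% of all pseudogenes tested, and 0 were higher. Their median was -2.03, and 9 were lower in the 6-library fit. Rpl7a-ps11 and Gm8226 had the largest falls among genes that do not code for protein, of 8.42 and 8.39 on the log2 scale (adjusted p = 0.00578 and 0.00693).

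Of 73 mitochondrial ribosomal proteins, 9 were lower (12.3%, near the 9.36% of all genes) and 0 higher in limma, at a median of -1.34. Mrps15 stood at 1.47, 1.59 and 2.05 FPKM in zygote and at 0.01, 0.0169 and 0.01 FPKM in zygote M (adjusted p = 0.000274). Mrpl52 fell by 7.02 and Mrpl22 by 6.14 (adjusted p = 0.000586 and 2.2e-06). Of 38 translation initiation factors, 8 were lower (21.1%, against 9.36% of all genes) and 1, Eif5a, was higher (6-library adjusted p = 0.0707), and the median was -0.88 against -0.87 over all genes. In the 6-library fit 1 of the 38 was lower. That gene was Eif2b4, a subunit of the exchange factor for eIF2, which stood at 24.3, 23.4 and 28.5 FPKM in zygote and at 0.0483, 0.751 and 0.0965 FPKM in zygote M (-7.38 ± 1.06, adjusted p = 2.56e-05, 6-library adjusted p = 0.0101). Eif3m and Eif4h fell by 6.43 and 5.32 (adjusted p = 0.0182 and 0.0118, 6-library adjusted p = 0.076 and 0.14). Eef1d of the elongation factors fell by 7.08 (adjusted p = 0.000165). Of 45 nucleolar ribosome biogenesis factors, 8 were lower (17.8%, against 9.36% of all genes) and 1, Nip7, was higher, at a median of -1.47, and the 6-library fit gave 4 lower. Bop1, a factor of large subunit assembly, fell by 6.80 (adjusted p = 0.000298).

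Genes of energy metabolism and protein breakdown lay on the lower side as well. Of 76 nuclear genes of oxidative phosphorylation, 20 were lower (26.3%, against 9.36% of all genes) and 3 were higher (3.95%, against 1.05%), at a median of -1.99 against -0.87 over all genes. The 6-library fit gave 18 lower and 3 higher, and 12 genes were lower in both fits. The higher genes were Atp5b (1.62, adjusted p = 0.00737), Cox6b2 (2.01, adjusted p = 0.00993) and Cox8a (1.84, adjusted p = 0.00325). Of 33 proteasome subunits, 7 were lower (21.2%, against 9.36% of all genes) and 1, Psmb6, was higher, at a median of -1.999. The 6-library fit gave 4 lower, but 0 subunits were lower in both fits, so all 7 calls were lost there. Psmb5, a catalytic subunit, fell by 5.55 (adjusted p = 0.000222), but its 6-library adjusted p was 0.0825, and Psmd6 and Psma1 had 6-library adjusted p of 0.0957 and 0.0993. Of 21 genes of mitochondrial import, Tomm6, Tomm22, Timm10 and Tomm7 were lower (19%, against 9.36% of all genes), and all 4 calls were lost in the 6-library fit. In both lists of 33 and 76 genes the direction of the median was the same under quantile normalization, at -0.95 and -1.20.

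Of 38 tested replication-dependent histone genes, 6 were lower (15.8%, against 9.36% of all genes) and 0 were higher in limma, and in the 6-library fit 7 were lower. Hist1h2ah stood at 12.4, 9.43 and 10.2 FPKM in zygote and at 0.01, 0.01 and 0.01022 FPKM in zygote M, all counted as at the floor, so no fold is given (adjusted p = 0.000526). Hist1h1c, a linker histone, was at 1.48 to 2.99 FPKM in zygote and at the floor in zygote M (adjusted p = 0.0224). Replication-dependent histone mRNAs end in a stem-loop in place of a poly(A) tail, and the libraries were primed on poly(A). Hist1h2bh fell by 7.15 and Hist1h2ac by 6.95 (adjusted p = 0.00719 and 0.00196). Of 17 tubulins and cofactors, 2 were lower (11.8%). Tubb4b, a tubulin, stood at 295, 287 and 359 FPKM in zygote and at 12.7, 41.5 and 19.0 FPKM in zygote M (-3.86 ± 0.74, adjusted p = 0.000917). Tubb2a fell by 2.75 (adjusted p = 0.0206, 6-library adjusted p = 0.0628), and the other 15 were not called. Of 36 DNA replication genes, 2 were lower (5.56%). Mcm3, of the replicative helicase, fell by 6.11 (adjusted p = 0.00502) and Cdc6, a licensing factor, by 4.73 (adjusted p = 0.00659, 6-library adjusted p = 0.0892). The histone variant H2afj fell by 2.73 (adjusted p = 0.00162).

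Among single genes the falls of Gpank1, Dus3l, Ltc4s and Irf1 rest on zygote M libraries that differ widely. Gpank1 stood at 49.7, 50.7 and 56.5 FPKM in zygote and at 0.0635, 0.01 and 3.85 FPKM in zygote M (-8.60 ± 1.05, adjusted p = 1.96e-06, 6-library adjusted p = 0.0574). Dus3l, a tRNA dihydrouridine synthase, had 1 zygote M library at 2.79 FPKM and the others at the floor (adjusted p = 0.00797, 6-library adjusted p = 0.0996). Ltc4s, the leukotriene C4 synthase, and Irf1, an interferon-response transcription factor, had 6-library adjusted p of 0.0513 and 0.0735. Slc25a35, a mitochondrial carrier, fell by 7.29 (adjusted p = 0.000802) and was called in both fits. Gm5617 and Prr23a1 were called in both fits, but in 1 and 0 of the 6 fits that leave out a library. Of 24 heat shock and stress genes, Hspa5 and Mt1 were lower (8.33%, against 9.36% of all genes), and both calls were lost in the 6-library fit (adjusted p = 0.123 and 0.0712). Snhg1 was lower among 9 snoRNA host transcripts (11.1%; log2 fold change -5.14, adjusted p = 0.0134, 6-library adjusted p = 0.0625). Of 12 genes of two-cell genome activation and 5 Obox genes, none was called by limma (against 10.4% of all genes) or by the 6-library fit. Obox8 was called higher under quantile normalization. Among the genes named above, quantile normalization ended the calls on Anapc4, Bub1b, Cenpl, Lsm5, Mt1, Patl2, Pttg1, Snhg1, Tob1 and Zbed3. Calls that held in at most 1 of the 6 fits that leave out a library also included those on Hist1h1c, Hspa5, Irf1, Mt1, Polr2d, Psma1, Psmb6, Tob1, Ube2c, Zp1 and Scarna13.

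**Figure D3:**
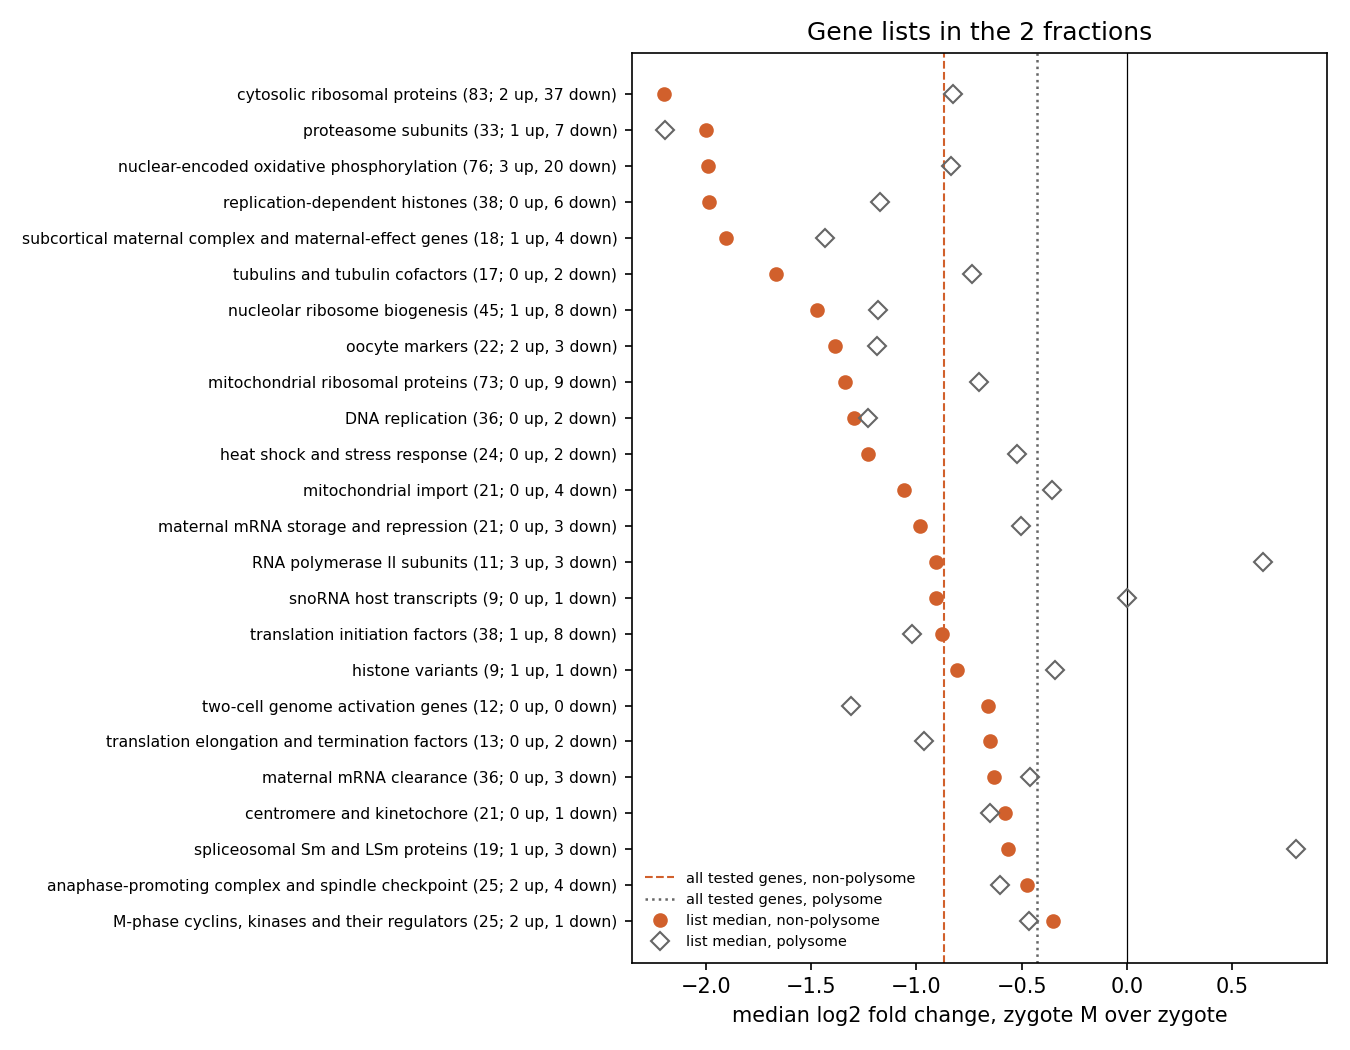
Median log2 fold change, zygote M over zygote, of each gene list with 9 or more tested members, as filled circles for the non-polysome and open diamonds for the polysome fraction. Numbers in brackets are tested members and those called up and down in the non-polysome fraction, and the dashed and dotted lines mark the medians of all genes, -0.87 and -0.43. Cytosolic ribosomal proteins have the lowest non-polysome median, -2.20.

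The 578 lower coding genes had a median 3′ UTR of 461 bases and the 53 higher ones of 299 bases, against 865 bases in all 6313. Under quantile normalization the 382 lower genes had a median of 330 bases and the 468 higher ones of 1252 bases, so for the higher genes the side on which they lie depends on the scaling. Coding genes with a 3′ UTR of up to 100 bases had a median log2 fold change of -2.28 (n = 369), and 24.1% of them were lower. The median was -1.52 for 101 to 200 bases, -1.22 for 201 to 400, -0.93 for 401 to 800, -0.65 for 801 to 1600 and -0.63 above that. The share of lower genes came down to 6.33% in the last class. Without ribosomal protein genes the first class stood at -2.24, and among genes with a zygote mean of at least 4 FPKM the median ran from -2.05 in the shortest class to -0.47 in the longest. In polysomes the first class stood at -1.07 and the rest between -0.58 and -0.44. Lengths were those of 1 annotated transcript a gene, and RNA quality and the length of amplified cDNA, for which no measure was at hand, were not tested.

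**Figure D4:**
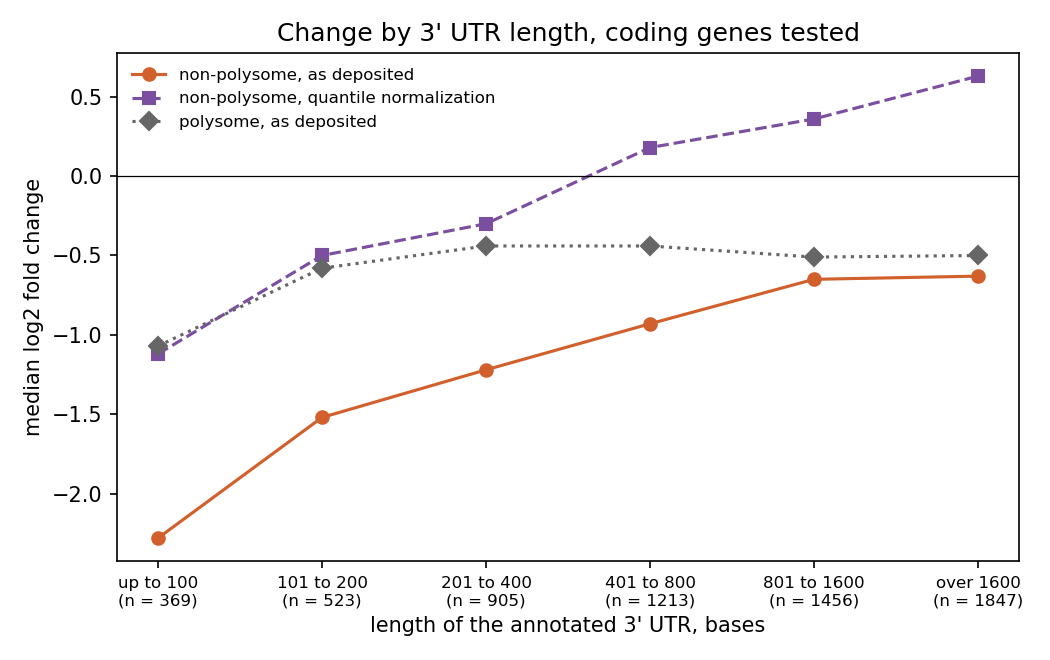
Median log2 fold change, zygote M over zygote, of tested coding genes in 6 classes of 3′ UTR length in bases, for non-polysome values as deposited, non-polysome values after quantile normalization and polysome values as deposited. The non-polysome median runs from -2.28 in the shortest class to -0.63 in the longest, and from -1.12 to 0.63 after quantile normalization.

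The same step of the cell cycle in the polysome fraction shows whether a change outside polysomes was matched inside them. There 458 genes (5.75%) were called, 258 higher and 200 lower (3.24% and 2.51%), at a median of -0.43. Of the 84 genes higher outside polysomes, 73 were also higher in polysomes, which is 86.9% of the first list and 28.3% of the second, and 71 of the 84 rose more in polysomes. Their median log2 fold change was 2.05 outside and 3.37 inside polysomes. Of the 746 lower genes, 137 were also lower in polysomes, which is 18.4% of the first list and 68.5% of the second, and the medians were -4.84 and -1.84. The 746 were chosen by their fall outside polysomes, which by itself favours the larger median there. Zygote M libraries also had a wider spread outside polysomes (median residual SD 1.06 against 0.562). More tested genes lay at the floor there too, 750 to 1011 a library against 295 to 464. Fractions with one letter may come from 1 gradient, and residuals of such pairs correlated at 0.025 to 0.167.

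The difference of the changes was tested directly, as the non-polysome change minus the polysome change. By limma 23 genes were called (0.289%), all with the more negative change outside polysomes, and 599 genes had an unadjusted p under 0.05. This count moved between 3 and 402 with the processing and should be read with that range. With the letter within each stage as a block, which pairs the fractions, 6 of the 23 were called: Cdc20, Pttg1, Gaa, Cmtm2a, Gm14706 and Gm11993. The other 17 had adjusted p of 0.0523 to 0.114 in that fit. Of the 23, 7 rose in both fractions, 10 fell outside polysomes with no call in polysomes, and 2 fell in both. Mt1, a metallothionein, and the predicted gene Gm21955 fell outside and rose inside polysomes, but the falls of both lost their calls under quantile normalization. Commd2 and Snrpert rose inside polysomes only by these calls.

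Cdc20 had the lowest adjusted p of the 23 genes and rose in both fractions. In polysomes it rose by 6.16 on the log2 scale (adjusted p = 1.87e-12) against 1.86 outside, a difference of -4.30 (adjusted p = 2.85e-05). Pttg1 rose by 3.83 in polysomes against 1.13 (difference -2.70, adjusted p = 0.0147), and Siva1 by 4.01 against 1.60 (difference -2.41, adjusted p = 0.0403, with the block 0.0523). In Siva1 the polysome libraries stood at 13.5, 8.12 and 11.3 FPKM in zygote and at 156, 254 and 129 FPKM in zygote M. Polr2c rose by 5.00 in polysomes and 2.43 outside (difference -2.58, adjusted p = 0.041, with the block 0.0917). The Tcl1 and Omt2 genes had larger rises in polysomes too, as in Tcl1b1 with 4.04 against 3.38 and Omt2a with 4.20 against 2.35, but these differences were not called (adjusted p = 1 and 0.177).

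Of the 83 cytosolic ribosomal protein genes, 3 were called in this difference (against 0.289% of all genes), all with the larger fall outside polysomes. Rps25 fell by 8.48 outside and by 3.86 inside polysomes (difference -4.62, adjusted p = 0.0133, with the block 0.0523). Rps9 fell by 7.88 outside and by 4.20 inside (difference -3.69, adjusted p = 0.0227, with the block 0.0552). Rps20 fell by 5.92 outside polysomes, where its polysome change of -1.45 was not called (adjusted p = 0.148). The difference in Rps20 had an adjusted p of 0.0552 with the block, so all 3 calls were lost there. Over all 83 ribosomal protein genes the polysome fraction had 18 lower and 4 higher at a median of -0.83. Gpank1 and Tomm6 fell outside polysomes and had polysome changes of -1.65 and -0.44 that were not called. Their differences were -6.95 and -4.89 (adjusted p = 0.0366 and 0.0438, with the block 0.0804 and 0.0703). Ooep fell by similar amounts in both fractions, 3.72 and 2.99, and its difference of -0.73 was not called (adjusted p = 1).

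**Figure D5:**
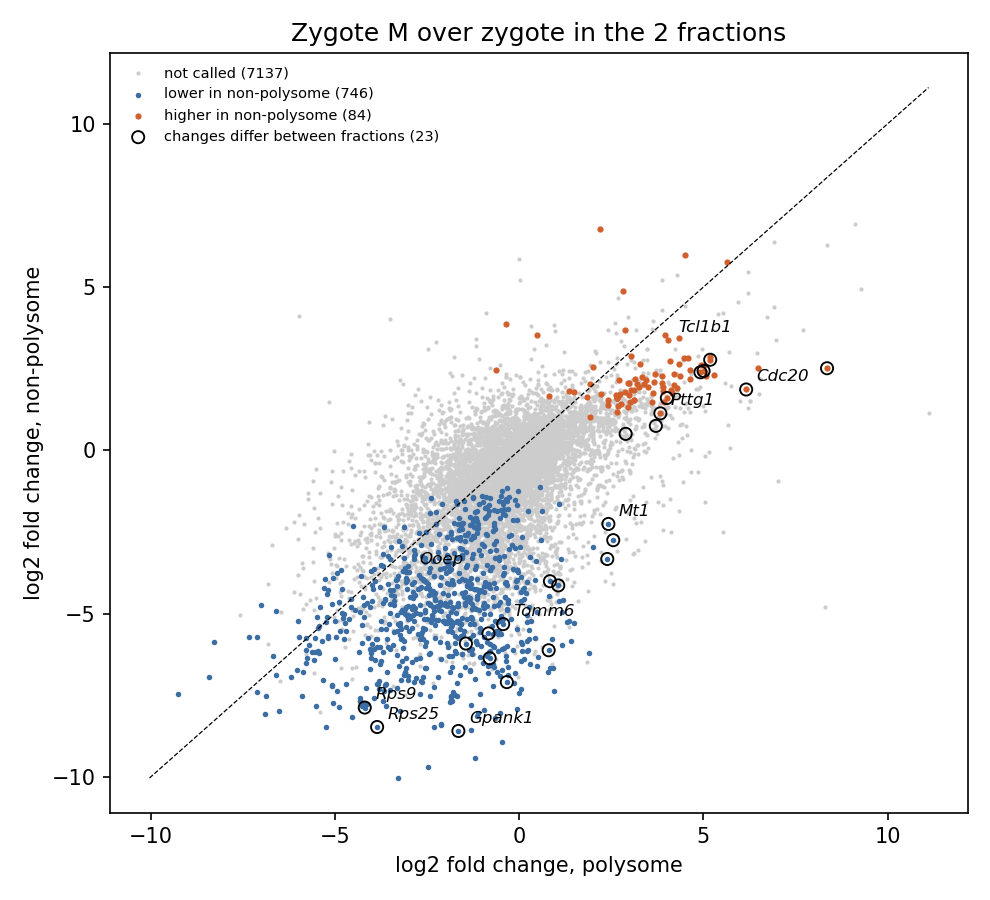
Log2 fold change, zygote M over zygote, of the 7967 tested genes in the polysome fraction (x axis) and the non-polysome fraction (y axis), with the 746 lower genes in blue, the 84 higher genes in orange and a circle around the 23 genes whose changes differed. All 23 circles lie below the dashed line of equal change, with Cdc20 at 6.16 and 1.86 and Rps25 at -3.86 and -8.48.

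The second mitosis, two-cell M against two-cell in the same fraction, served as a comparison that shares no library with the first. It gave 651 genes higher and 2227 lower (8.17% and 28%), and 2201 genes (27.6%) changed differently in the 2 mitoses. The spread was wide there, with a median residual SD of 1.64 in two-cell. Of the 83 cytosolic ribosomal protein genes, 61 had a more negative change in the first mitosis (against 11.4% of all genes) and 1 a more positive one, and their medians were -2.20 and 2.47. Rps9 fell by 7.88 in the first and rose by 2.15 in the second mitosis (adjusted p of the second = 0.00215, of the difference 6.6e-11). Oocyte markers went the other way, with 8 of 22 more positive in the first mitosis (against 16.2% of all genes) and 0 more negative by limma, and medians of -1.39 and -3.12. Tcl1b1 rose by 3.38 in the first and fell by 9.67 in the second mitosis. Cdc20 and Nip7 rose in both, by 1.77 and 1.49 in the second.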

How the data were processed

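The authors trimmed reads with Trim Galore (0.4.1), aligned them with STAR (2.5.3a) to GRCm38 and analysed them with Partek, per the labels and the study's methods. Libraries were made with an oligo-dT primed SMART-seq kit and Nextera tagmentation. The deposited table holds normalized FPKM of 23125 genes in 36 libraries, and each value includes the floor of 0.01. It holds no counts. Low values fell on steps from which relative depth was estimated, but in the 6 libraries compared only 25.2% to 34.4% of those up to 5 steps were whole within 1%, so no reads were recovered and no count test was run. The 2 zygote samples of letter A have no column and were not analysed here.

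The log2 values, without an offset, entered limma (3.58.1, R 4.3.3) as 12 group means over 36 libraries, with a mean-variance trend. Testing was limited to the 7967 genes whose geometric mean reached 0.1 FPKM, two-sided, with Benjamini-Hochberg adjustment. Standard errors are those of this fit, which pools the spread of all groups. Calls needed an adjusted p under 0.05 and a fold over 2, as in the study's methods. The script was tested on simulated data. The study describes its replicates as biological, and p-values measure the spread between these libraries.

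Named genes were, among called genes whose higher group averaged 10 FPKM or more and whose groups were apart, the 10 coding genes with the largest rise and fall, and 2 of other biotypes in each direction. Added at the same minimum level, whether or not groups overlapped, were the 5 coding genes with the largest called differences between fractions. Added without a minimum level or a rule on overlap were up to 4 called members of each list, those with the largest change, and Cdc20, Cenpa, H2afz, Nip7, Ooep and Elob, for M-phase genes that the study names. The study writes Elob1 and ELOBL for the last of them, taken here to be Elobl, which was added after its values were seen. Of the genes named by the rule, 1 is not reported here. Genes outside that rule, where given, were chosen after their values were seen. The members, lists and tests were chosen with earlier results of these data known. 3′ UTRs and exon lengths came from GENCODE vM21. Other settings were an added 0.1 or 1 FPKM, other filters, coding genes only, quantile or median scaling, smaller sets of libraries, array weights, replicate blocks and leaving out each library.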

Additional observations from a re-analysis of the deposited data

Results flagged for a closer look

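The change from zygote to zygote M differed between the 2 fractions in 23 genes, by limma's test of the difference (non-polysome change minus polysome change, log2). The most negative differences were those of Gpank1 (-6.95), Cmtm2a (-6.92), Gm6685 (-6.76), Gm14706 (-5.84), Gm21955 (-5.72), Gaa (-5.57), AC153152.1 (-5.31) and Gm17823 (-5.20). Cmtm2a stood at 0.518 to 0.912 FPKM outside polysomes in zygote and at the floor in zygote M, while its polysome values were 0.591 to 0.751 and 1.12 to 1.29 FPKM. Tomm6 differed by -4.89, Aprt by -4.84, Tspan17 by -4.77, Mt1 by -4.68, Rps25 by -4.62, Rps20 by -4.47, Cdc20 by -4.30 and Rps9 by -3.69. The differences of Snrpert (-2.96), Pttg1 (-2.70), Polr2c (-2.58), Gm11993 (-2.53), Gm8186 (-2.41), Siva1 (-2.41) and Commd2 (-2.39) lay in genes that rose in polysomes. Several of these genes are pseudogenes or paralogues that may share reads with other genes. With the letter within each stage as a block, 6 of the 23 were called. Over all tested genes the difference had a median of -0.60.

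In the non-polysome fraction, 2201 genes changed differently in the first and in the second mitosis by the same kind of test.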

How the results depend on the processing

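Adding 1 FPKM before the logarithm gave 142 higher genes. Quantile normalization gave 601 higher genes. Median centring gave 477 called genes, 131 higher and 346 lower. A fit of the non-polysome libraries only gave 340, 52 higher and 288 lower, and array weights gave 1319, of which 1224 were lower. A fit of the 6 libraries with no trend, chosen after seeing the data, gave 370. Leaving out 1 library gave 426 to 825 calls, 41 to 80 higher and 383 to 745 lower. Lower calls were 449, 437 and 383 without zygote B, C and D, and higher calls were 41 and 43 without zygote C and D and 49 and 55 without zygote M A and B. For each of these changes the cause was not tested. The difference between fractions gave 9 genes with 0.1 FPKM added, 14 with 1 FPKM added, 74 with no filter, 49 with quantile normalization, 3 with median centring, 402 with only the groups compared and 379 with array weights. It gave 8 to 97 genes when 1 library was left out. Polysome calls were 1162 with quantile normalization, 2599 with only the groups compared and 269 to 355 when 1 library was left out. Calls of the second mitosis and of its difference from the first were 880 and 1068 with only the groups compared, and 2541 to 2759 and 1864 to 2274 when 1 library was left out. The difference between groups in genes per library was -3677 at 0.02 FPKM and -799 at 1 FPKM, against -2697 at 0.1 FPKM, and -2859 to -2551 when 1 library was left out.

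Letters B and C occur in both groups, but the labels do not tie them to a shared origin, and their residuals correlated at 0.125 and 0.104. With the letter as a block, 61 genes were higher and 505 lower. With the gradient of each letter as a block, 6 genes differed between fractions. Of 95 named genes, 1 changed sign in any setting, Elob, which was at 0.44 after quantile normalization.

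A value at the floor is only an upper bound. That holds for 750 to 1011 of the tested genes in a zygote M library, so the size of many falls is set by the floor.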
